A study of Sus scrofa with 19 samples.

Results

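CXCL9 and CXCL11 are chemokines, small secreted proteins that attract leucocytes. Their levels were measured in whole adrenal glands of 19 male piglets, each from a different sow. The members were the probe sets whose only gene symbol in the array annotation is CXCL9 or CXCL11. There was 1 for each gene (probe set 15323375 for CXCL9 and 15323385 for CXCL11), which made 2 of the 27558 probe sets on the array, and 2 of the 12217 genes named by a probe set of their own. The genes were selected on their lower signal after maternal LPS in these same arrays. Their differences between maternal LPS and saline are therefore given as a description, with no test.

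Sows received Fish Oil, Microalgae or Control diets from gestation day 75. They were given LPS or saline on gestation day 112. LPS (lipopolysaccharide) is a component of the bacterial cell wall used to provoke inflammation. Piglets were weaned at 21 days, received LPS themselves at 28 days and were killed 2 hours later, so that every gland came from a challenged animal and none from an unchallenged one. The groups held 4 Fish Oil piglets after maternal LPS (10, 19, 20 and 24 by the labels' numbers) and 4 after saline (9, 11, 13 and 18). There were 2 Microalgae piglets after LPS (7 and 23) and 3 after saline (12, 15 and 22). The Control diet had 3 after LPS (6, 16 and 17) and 3 after saline (8, 14 and 21). The labels name no breed. The number of arrays limits the precision, above all in the group of 2.

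CXCL9, CXCL10 and CXCL11 form a family of interferon-induced chemokines that share the receptor CXCR3, carried by activated T cells and natural killer cells. Interferon gamma acts through its receptor, the kinases JAK1 and JAK2, and factors such as IRF1. Type I interferons act in part through STAT2 and IRF9. CXCL9 is known mainly as a target of interferon gamma, while CXCL10 and CXCL11 also respond to type I interferons. CXCL11 binds a further receptor, ACKR3, which takes chemokines up without the usual signalling, and the surface peptidase DPP4 trims all 3 ligands.

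The adrenal label was checked against markers. CYP17A1 (mean log2 signal 12.4), CYP21A2 (11.2) and HSD3B1 (11.1), enzymes of steroid synthesis in the cortex, were bright. The medullary genes CHGB (10.8), PNMT (7.14) and DBH (6.59) were measured as well, far above 3.23, the mean under which probe sets were left out as dim. For 6 of 10 cortex markers and 4 of 7 medulla markers the annotation listed no probe set of that symbol alone. Array medians lay between 4.38 and 4.52. The interquartile range of an array was lowest for piglet 24 (2.27) and piglet 6 (2.39), against at most 2.65, in piglet 20. When arrays were weighted by their agreement with the model, piglets 24 (0.302) and 6 (0.451) also had the lowest weights. That of piglet 20 was 0.692. Piglets 6 and 24 were from LPS sows, so the main values are also given without these 2 below.

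CXCL9 was the less variable of the pair. In Fish Oil piglets of LPS sows it was measured at 7.13, 7.80, 6.01 and 7.69 on the log2 scale (piglets 10, 19, 20 and 24). Their counterparts of saline sows had 8.13, 8.37, 8.90 and 8.11 (piglets 9, 11, 13 and 18). Every Fish Oil piglet after LPS lay below every one after saline, and piglet 20 had the lowest CXCL9 of all 19. Of all probe sets tested, 1.44% separated the Fish Oil groups in this direction, a share that says nothing of genes chosen on the contrast.

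Microalgae piglets had CXCL9 at 6.995 and 6.87 after maternal LPS (piglets 7 and 23), against 8.66, 8.36 and 7.06 after saline (piglets 12, 15 and 22). These groups did not overlap either (14.7% of all probe sets did the same), but piglet 22 came within a small step of the LPS pair. In the Control diet CXCL9 was at 7.75, 8.44 and 6.47 after LPS (piglets 6, 16 and 17), against 7.25, 8.34 and 7.70 after saline (piglets 8, 14 and 21). The Control groups overlapped, with both the highest and the lowest of the 6 values after LPS.

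CXCL11 covered a wider span. Fish Oil piglets of LPS sows had 6.74, 5.55, 4.19 and 6.83, and those of saline sows had 7.38, 7.96, 7.20 and 8.05, in the same order of piglets. The groups again did not overlap, and piglet 20 was again the lowest of all. Microalgae piglets had 6.21 and 5.17 after LPS, against 8.69, 7.29 and 6.15 after saline. Piglet 12 had the highest CXCL11 of the 19, while piglet 22 lay inside the range of the LPS pair. Control piglets had 5.97, 6.99 and 5.58 after LPS, against 6.33, 6.85 and 6.47 after saline. The 3 Control saline values lay inside the range of the LPS values.

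**Figure D1:**
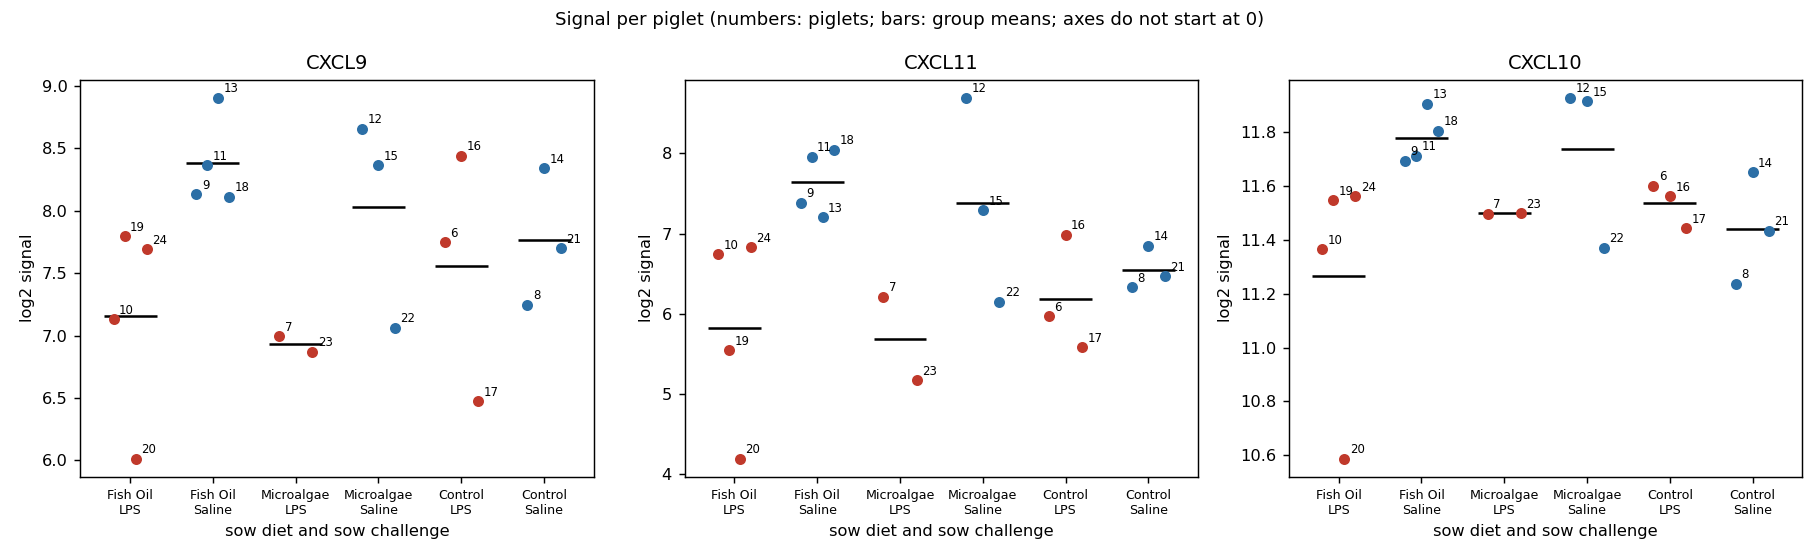
Log2 signal (vertical axes, not starting at 0) of CXCL9, CXCL11 and CXCL10 in each of 19 piglets, by sow diet and sow challenge; points carry piglet numbers, bars are group means, red is maternal LPS and blue is saline. In Fish Oil piglets all 4 LPS points lie below all 4 saline points for the 3 genes, and piglet 20 is lowest in every panel.

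Both genes put the 6 groups in the same order of mean signal. Both were chosen for lower signal after maternal LPS, so the LPS groups lie below the saline groups in part through that choice. For CXCL9 the order was Microalgae LPS (6.93 ± 0.0888, n = 2), Fish Oil LPS (7.16 ± 0.817, n = 4), Control LPS (7.55 ± 0.999, n = 3), Control saline (7.76 ± 0.550, n = 3), Microalgae saline (8.03 ± 0.849, n = 3) and Fish Oil saline (8.38 ± 0.368, n = 4), where ± is the SD between piglets. For CXCL11 the same sequence ran 5.69 ± 0.739, 5.83 ± 1.24, 6.18 ± 0.725, 6.55 ± 0.269, 7.38 ± 1.28 and 7.65 ± 0.418. No pair of neighbours in either order was separated beyond its spread, since their piglets overlapped in every case. The widest gap between neighbours was 0.83 for CXCL11, between Microalgae saline and Control saline, with an SE of 0.720 from the pooled within-group SD.

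Averaged over the 3 diets with equal weight, CXCL11 was at 5.90 after maternal LPS and 7.19 after saline, a difference of -1.29 ± 0.362 (SE of the limma model) or 0.408-fold. CXCL9 was at 7.21 after LPS and 8.06 after saline, a difference of -0.84 ± 0.292 or 0.558-fold. These are the values the genes were chosen by. Counted from the most negative difference, CXCL11 stood at place 3 and CXCL9 at place 25 of the 20668 probe sets tested. Tested probe sets are those left after the 25% with the lowest mean were set aside.

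In piglets of LPS sows the median CXCL11 was 5.97, against 7.25 in piglets of saline sows. All 9 LPS piglets lay below the saline median. The lowest 5 values belonged to LPS piglets (6, 17, 19, 20 and 23). The highest 6 belonged to saline piglets of the Fish Oil or Microalgae diets (9, 11, 12, 13, 15 and 18). For CXCL9 the medians were 7.13 and 8.24, and 8 of 9 LPS piglets lay below the saline median. The exception was piglet 16 of the Control diet.

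The estimated difference was larger under Fish Oil and Microalgae than under Control. Under Fish Oil, CXCL11 was lower after maternal LPS by a difference of -1.82 ± 0.544 (0.283-fold), and CXCL9 by -1.22 ± 0.438 (0.429-fold). Under Microalgae the differences were -1.69 ± 0.702 (0.310-fold) for CXCL11 and -1.09 ± 0.566 (0.468-fold) for CXCL9. Under the Control diet they were -0.37 ± 0.628 (0.773-fold) and -0.21 ± 0.506 (0.866-fold), both smaller than their SE. The LPS difference under Fish Oil minus that under Control was -1.45 ± 0.830 for CXCL11 and -1.01 ± 0.669 for CXCL9. The same contrast for Microalgae was -1.32 ± 0.942 and -0.89 ± 0.759. These diet dependences come from the contrast that chose the genes and were not tested.

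For CXCL9 the Control difference turned to 0.33 without piglet 17 and was -0.65 without piglet 16. Under Microalgae, CXCL11 differed by -2.30 without piglet 22 and by -1.03 without piglet 12. Without piglets 6 and 24, the arrays of lowest spread, the difference over the 3 diets was -1.37 for CXCL11 and -0.93 for CXCL9. Under Fish Oil it was then -2.16 for CXCL11 and -1.40 for CXCL9.

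**Figure D2:**
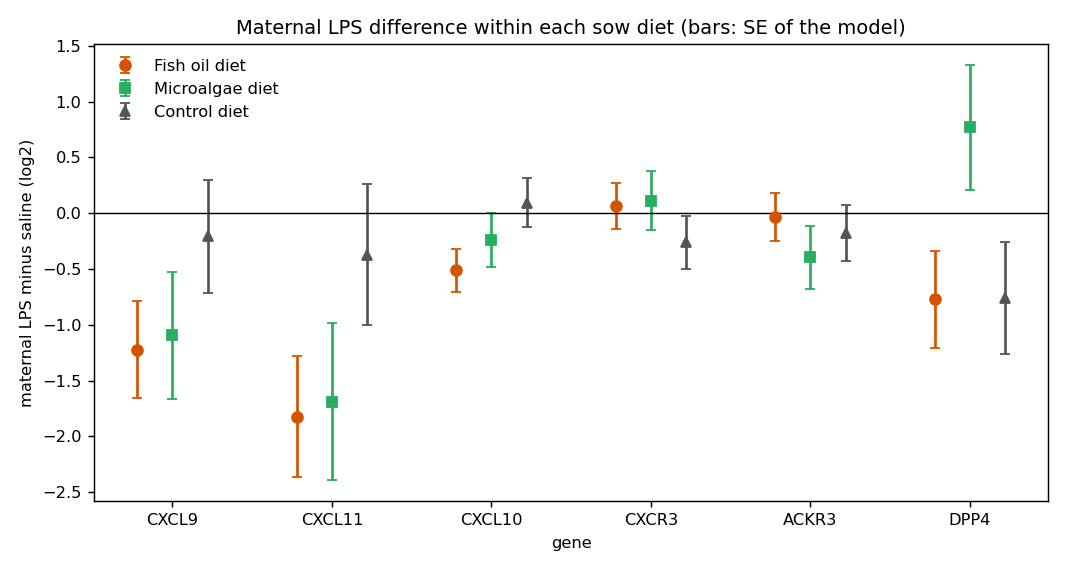
Maternal LPS minus saline (log2, vertical axis) within each sow diet for CXCL9, CXCL11, the third ligand CXCL10, the receptors CXCR3 and ACKR3 and the peptidase DPP4; points are differences of group means and bars are SE of the model. CXCL9 and CXCL11 lie between -1.82 and -1.09 under Fish Oil and Microalgae, and at -0.21 and -0.37 under the Control diet.

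Seen from the side of the diets, both genes lay below Control after maternal LPS and above it after saline. CXCL11 in Fish Oil piglets minus Control was -0.35 ± 0.587 after LPS and 1.10 ± 0.587 after saline. For CXCL9 the same differences were -0.40 ± 0.473 after LPS and 0.62 ± 0.473 after saline. Microalgae minus Control was -0.49 ± 0.702 after LPS and 0.83 ± 0.628 after saline for CXCL11, and -0.62 ± 0.566 and 0.27 ± 0.506 for CXCL9. Apart from CXCL11 in Fish Oil and in Microalgae and CXCL9 in Fish Oil after saline, and CXCL9 in Microalgae after LPS, these differences were smaller than their SE. These simple differences share groups with the contrast that chose the genes and were not tested.

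The diets averaged over both maternal challenges were not used to choose the genes, and these comparisons were tested. The error of Fish Oil minus Control is uncorrelated with that of the maternal LPS contrast. With 2 and 3 Microalgae piglets, this does not hold entirely for the comparisons with Microalgae. No diet comparison passed the threshold for either gene. For CXCL11, Fish Oil averaged 6.74 and Control 6.36, a difference of 0.37 ± 0.415 with a 95% confidence interval of -0.50 to 1.25 (limma, unadjusted p = 0.381, adjusted p = 0.99989). Microalgae averaged 6.53, a difference from Control of 0.17 ± 0.471 (interval -0.82 to 1.16, unadjusted p = 0.723). Fish Oil minus Microalgae was 0.20 ± 0.444 (interval -0.73 to 1.14, unadjusted p = 0.652). The intervals allow a change of more than 1 log2 unit upward in each comparison.

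CXCL9 averaged 7.77 under Fish Oil, 7.48 under Microalgae and 7.66 under Control. Fish Oil minus Control was 0.11 ± 0.335 (interval -0.59 to 0.82, limma, unadjusted p = 0.744). Microalgae minus Control was -0.18 ± 0.380 (interval -0.98 to 0.62, unadjusted p = 0.645), and Fish Oil minus Microalgae was 0.29 ± 0.358 (interval -0.46 to 1.04, unadjusted p = 0.430). The smallest adjusted p among the 6 tests was 0.99989. Across the whole array the limma fit called 0 probe sets (0%) in each diet comparison at an adjusted p under 0.05. At an unadjusted p under 0.05 it marked 2.69% of the 20668 for Fish Oil minus Control, 1.65% for Microalgae minus Control and 2.85% for Fish Oil minus Microalgae.

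Piglets of the same group differed more in these genes than in most. The within-group SD was 0.882 for CXCL11, larger than that of 98.8% of tested probe sets, and 0.705 for CXCL9, larger than that of 97.1%. The median over all probe sets was 0.263. From the lowest to the highest piglet CXCL11 spanned 4.50 log2 units (22.7-fold) and CXCL9 spanned 2.89 (7.41-fold). CXCL10 spanned 1.34 (2.53-fold), with a within-group SD of 0.272, close to the median. CXCL10 was brighter than 99.8% of tested probe sets, CXCL9 than 92.0% and CXCL11 than 81.6%, but signals of different probe sets cannot be compared as levels.

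Once the group means were taken off, CXCL9 and CXCL11 still varied together. Over the deviations of 19 piglets Pearson's r was 0.691 (permutation within groups, p = 0.0178) and Spearman's rho was 0.56 (permutation p = 0.0494). Without piglets 20 and 17, the farthest from the median of CXCL9, r was 0.503 (permutation p = 0.229), so the relation rests in part on those piglets. Piglet 20 alone lowered r to 0.557 when left out (permutation p = 0.113), and piglet 22 to 0.604 (permutation p = 0.0501). Without piglets 6 and 24 r was 0.682 (permutation p = 0.0656). The genes lay on the same side of their group means in 12 of 19 piglets. Piglets 20, 22 and 17 were low in both, and piglets 12, 24 and 16 were high in both.

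**Figure D3:**
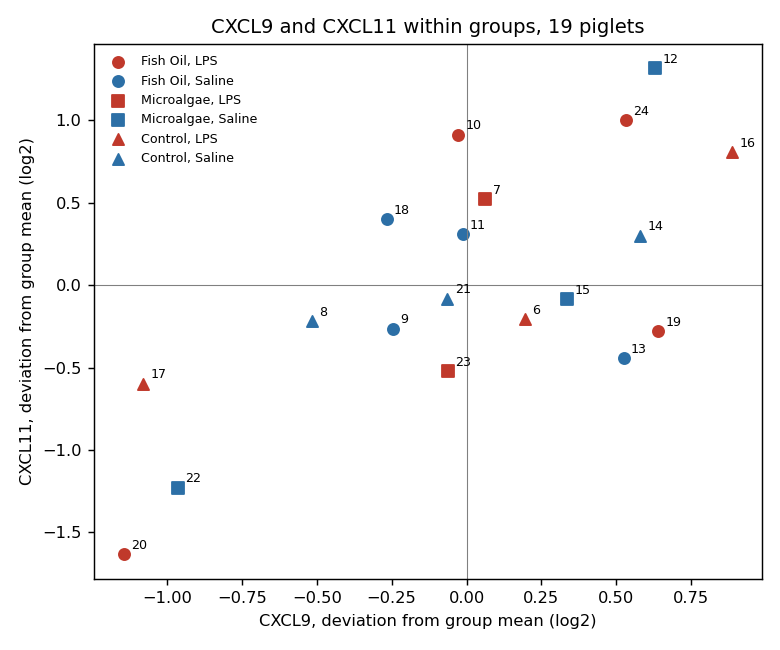
Deviation of each of 19 piglets from its group mean (log2) for CXCL9 (horizontal axis) and CXCL11 (vertical axis); colours give the maternal challenge and shapes the diet. The deviations rise together (r = 0.691), with piglet 20 lowest in both and 12 of 19 piglets in the upper right or lower left quadrant.

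CXCL10, the third ligand of CXCR3, had values of 11.36, 11.55, 10.59 and 11.56 in Fish Oil piglets of LPS sows, against 11.69, 11.71, 11.90 and 11.80 in those of saline sows. The groups did not overlap, as for CXCL9 and CXCL11, and 1.44% of all probe sets separated in this direction. In Microalgae piglets CXCL10 was at 11.50 and 11.50 after LPS, against 11.93, 11.91 and 11.37 after saline. In Control piglets it was at 11.60, 11.56 and 11.44 after LPS, against 11.24, 11.65 and 11.43 after saline, and there the groups overlapped.

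Over the 3 diets CXCL10 differed by -0.22 ± 0.126 between maternal LPS and saline (limma, unadjusted p = 0.0997, adjusted p = 0.711). Under Fish Oil the difference was -0.51 ± 0.189 (unadjusted p = 0.0144, adjusted p = 0.911, Benjamini-Hochberg). Under the Control diet it was 0.09 ± 0.218. None of these passed the threshold, nor did the difference between Fish Oil and Control in their LPS contrasts (-0.61 ± 0.289, adjusted p = 0.99994). CXCL10 was the closest companion of CXCL9 among the measures tested, with r = 0.836 over deviations from group means (permutation p = 0.00022, adjusted p = 0.0145 over 66 correlations), rho = 0.86 (permutation p = 0.00066), and r = 0.902 without piglets 20 and 17. With CXCL11 its r was 0.714 (permutation p = 0.0273, adjusted p = 0.225), rho was 0.54 (permutation p = 0.0444), and r was 0.347 without piglets 20 and 12.

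Neither receptor passed the threshold for maternal LPS. CXCR3, which marks activated T and natural killer cells, was measured at 5.69, 5.65, 5.55 and 6.49 in Fish Oil piglets of LPS sows and at 6.08, 5.75, 5.58 and 5.71 in those of saline sows. The groups overlapped, and piglet 24 stood above the rest. Over the diets CXCR3 differed by -0.03 ± 0.136 (limma, adjusted p = 0.967), and its r within groups was 0.149 with CXCL9 (permutation p = 0.652) and 0.193 with CXCL11 (permutation p = 0.597). ACKR3 differed by -0.20 ± 0.144 (adjusted p = 0.747).

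DPP4, which shortens the ligands, differed by -0.25 ± 0.289 (limma, adjusted p = 0.829). It ranged from 4.39 to 5.44 across the LPS piglets and from 4.16 to 7.15 across the saline piglets. Its difference was -0.77 ± 0.433 under Fish Oil, 0.77 ± 0.560 under Microalgae and -0.76 ± 0.501 under Control, a different order of diets from that of the ligands. PF4, the remaining gene of the CXCR3 list, had no probe set of its own symbol.

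Among the genes that carry interferon signals, IFNG itself lay under the filter, with 1.66 to 2.42 after maternal LPS and 1.63 to 2.60 after saline, and was not tested. IFNB1 also lay under it. IFNGR1, a chain of the interferon gamma receptor, differed by -0.30 ± 0.212 over the diets (limma, adjusted p = 0.749). Its Microalgae values were 6.39 and 6.48 after LPS, against 7.62, 7.18 and 8.03 after saline, a difference of -1.17 ± 0.410 (unadjusted p = 0.0106, adjusted p = 0.311). Both values after LPS lay below all 3 after saline, as they did for 14.7% of all probe sets, while under Fish Oil the difference had the other sign (0.19 ± 0.318).

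STAT2, a factor of the type I interferon complex, was at 7.81, 7.93, 7.12 and 8.11 in Fish Oil piglets of LPS sows, against 8.66, 8.28, 8.51 and 8.55 in those of saline sows. These groups did not overlap, as for 1.44% of all probe sets, and piglet 20 was again the lowest. The Fish Oil difference was -0.76 ± 0.203 (limma, unadjusted p = 0.00155, adjusted p = 0.403), and that over the diets was -0.33 ± 0.135 (unadjusted p = 0.0274, adjusted p = 0.687). IRF9, its partner, differed by -0.12 ± 0.0938 (adjusted p = 0.761) over the diets. IRF1 differed by -0.11 ± 0.126 (adjusted p = 0.823).

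Of 33 genes of the interferon input list, 20 were tested, and 15 of them were lower after maternal LPS and 5 higher. Over all probe sets tested 48.2% were lower. None of the 20 passed the adjusted threshold in limma, where 0.00968% of all probe sets did (2 of 20668). At an unadjusted p under 0.05, 3 were lower and 1 higher, against a background of 3.59% lower and 3.37% higher among all probe sets. The 3 lower genes were IRF2, an interferon regulatory factor known chiefly as a counterpart of IRF1 (-0.63 ± 0.127, unadjusted p = 0.000112, adjusted p = 0.145), JAK2 (-0.42 ± 0.170, unadjusted p = 0.0234) and STAT2. IL12B, a subunit of the cytokine that drives interferon gamma production, was the higher one (0.21 ± 0.0956, unadjusted p = 0.0422). It was dim, at 3.63 after LPS and 3.42 after saline, close to the filter at 3.23. The median difference of the list was -0.12, against 0.01 over all probe sets. Without piglets 6 and 24, 4 of the 20 were lower and 0 higher at an unadjusted p under 0.05. In that fit 536 of the 20668 probe sets tested were lower at that level.

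The list of other genes known to be induced by interferon gamma held 17 symbols, of which 10 were tested, with CXCL10 among them. After maternal LPS 9 were lower and 1 higher, with a median of -0.31. Over all probe sets tested 48.2% were lower, with a median of 0.01. None of the 10 passed the adjusted threshold, and 4 were lower at an unadjusted p under 0.05 in limma, against 3.59% of all probe sets. CD274, the immune checkpoint ligand PD-L1, was at 8.84 after LPS and 9.65 after saline (-0.81 ± 0.257, unadjusted p = 0.00559, adjusted p = 0.568). GBP1, a guanylate-binding protein of cell-autonomous defence, was at 7.32 and 8.11 (-0.79 ± 0.267, unadjusted p = 0.00837, adjusted p = 0.599).

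The other genes of this set were GBP2 (-0.50 ± 0.229, unadjusted p = 0.0413) and WARS, the tryptophanyl-tRNA synthetase (-0.26 ± 0.110, unadjusted p = 0.0274). A second, dimmer probe set of WARS differed by -0.18 ± 0.190. Under Fish Oil all 10 were lower, with a median of -0.73, and 6 had an unadjusted p under 0.05, against 2.88% of all probe sets lower at that level in the Fish Oil comparison. CD274 then differed by -1.45 ± 0.385 (adjusted p = 0.403) and GBP1 by -1.30 ± 0.401 (adjusted p = 0.575). Under Microalgae 9 of 10 were lower, with a median of -0.28, and under Control 6 of 10, with a median of -0.09. Of all probe sets 48.9% were lower under Fish Oil, 46.7% under Microalgae and 49.7% under Control. The Control count lies near its share. Without piglets 6 and 24 the count over the diets was again 9 lower and 1 higher, with 5 lower at an unadjusted p under 0.05 and a median of -0.45. In that fit 536 of the 20668 probe sets tested were lower at that level. The genes of this list respond to some of the same signals as CXCL9 and CXCL11, so their differences are not independent of those that chose the members.

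The remaining chemokines showed smaller differences than CXCL9 and CXCL11, which were chosen on this contrast. Of 33 symbols, 24 were tested, 17 lower and 7 higher after maternal LPS, with a median of -0.06 and none past the adjusted threshold. Over all probe sets 48.2% were lower. The monocyte attractants CCL8 (-0.42 ± 0.249, limma, unadjusted p = 0.110) and CCL2 (-0.26 ± 0.174, unadjusted p = 0.149) and the neutrophil attractant CXCL8 (-0.23 ± 0.224, unadjusted p = 0.313) were among the lower ones. CCL22, which attracts cells bearing CCR4, was the single one at an unadjusted p under 0.05 (-0.23 ± 0.106, limma, unadjusted p = 0.0471, adjusted p = 0.697), and a group mean of it lay under the filter. A count of 1 in 24 is near the 3.59% of all probe sets that were lower at that level. Without piglets 6 and 24 the list held 14 lower and 10 higher, and 0 at an unadjusted p under 0.05. In the diet comparisons 0 of the 56 tested list genes had an unadjusted p under 0.05 in limma for either diet against Control. For Fish Oil minus Microalgae 2 did, the macrophage chemokine CCL4 (0.38 ± 0.175, unadjusted p = 0.0426) and IL12B (-0.25 ± 0.117, unadjusted p = 0.0467). Of all probe sets 2.69% did for Fish Oil minus Control, 1.65% for Microalgae minus Control and 2.85% for Fish Oil minus Microalgae. Counts of 0 and 2 in 56 are near these shares.

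**Figure D4:**
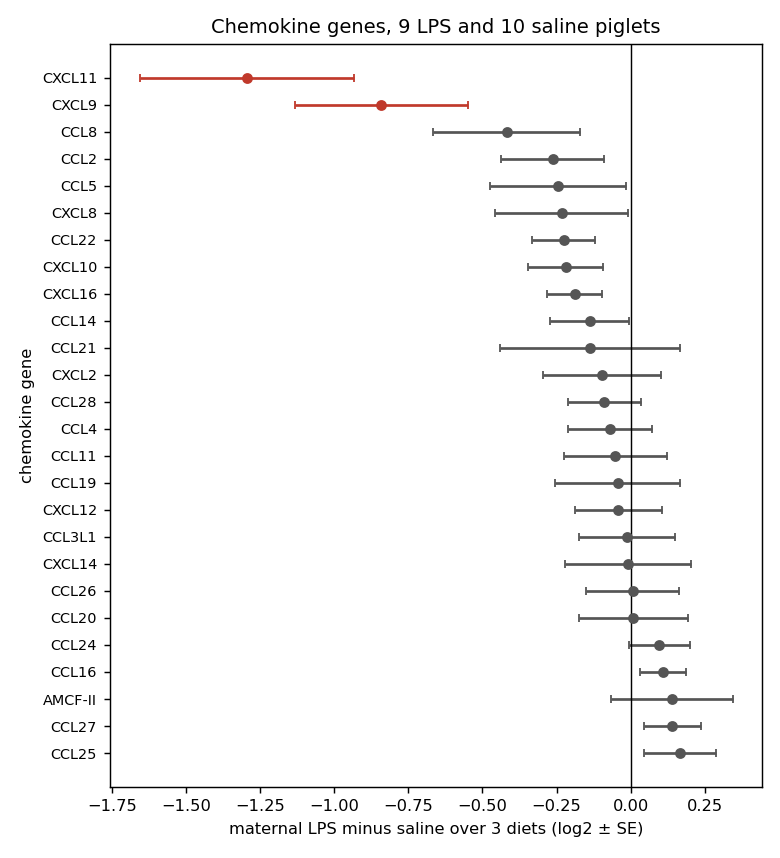
Maternal LPS minus saline averaged over 3 diets (log2, horizontal axis) for each chemokine gene tested; points are differences, bars are SE of the model, and CXCL9 and CXCL11, which were chosen on this contrast, are in red. CXCL11 (-1.29) and CXCL9 (-0.84) lie left of the others, of which CCL8 (-0.42) is the nearest.

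CXCL9, CXCL10 and CXCL11 are neighbours in the gene order of the RefSeq pig annotation, with ART3 between CXCL9 and CXCL10. The flanking genes were looked up after the values were known. ART3 differed by -0.06 ± 0.170 after maternal LPS (limma, adjusted p = 0.947), SDAD1 on the outer side of CXCL9 by -0.07 ± 0.112 (adjusted p = 0.879), and NUP54 on the outer side of CXCL11 by -0.18 ± 0.183 (adjusted p = 0.802). SCARB2, the gene after NUP54, differed by -0.27 ± 0.118 (unadjusted p = 0.0353, adjusted p = 0.695). Each of these differences was smaller in size than those of CXCL9 and CXCL11. The members were chosen on this contrast, so that comparison was largely settled by the choice.

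The cells that could make or follow these chemokines were followed through marker lists. In bulk tissue, fewer cells of a type and less RNA per cell cannot be told apart. For T and natural killer cells, 16 of 18 markers were measured, of which CD3G and KLRK1 lay under the filter. Their mean level ran from 4.0005 to 4.64 after maternal LPS and from 3.96 to 4.38 after saline. Of the 14 tested, 8 were higher and 6 lower, where 48.2% of all probe sets were lower. NCR1, a natural killer receptor, was the single one of the 14 at an unadjusted p under 0.05 (0.40 ± 0.151, limma, unadjusted p = 0.0165, adjusted p = 0.654). Endothelial markers (7 of 8 measured) had a mean level of 5.22 to 5.88 after LPS and 5.34 to 5.71 after saline.

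Macrophages are a known source of CXCL9 and CXCL11. Of 11 macrophage markers 9 were measured, all above the filter. Over the 3 diets 5 were higher after maternal LPS and 4 lower, with a median of 0.06. Of all probe sets 48.2% were lower in that comparison. Under Fish Oil 7 of 9 were lower after maternal LPS (mean level 5.19 to 5.60 after LPS, 5.14 to 5.91 after saline), and under Microalgae 7 of 9 were lower (5.12 to 5.18 after LPS, 4.93 to 5.59 after saline). Under Control all 9 were higher (5.40 to 5.47 after LPS, 4.93 to 5.19 after saline). Of all probe sets 48.9% were lower after LPS under Fish Oil, 46.7% under Microalgae and 49.7% under Control. The part of macrophages in the diet pattern of CXCL9 and CXCL11 was not tested. Neutrophil markers (4 of 5 measured) had a mean level of 4.19 to 5.31 after LPS and 4.25 to 4.97 after saline, and all 4 were higher after LPS under Control while 3 of 4 were lower under Fish Oil. Over the 3 diets S100A9, a calcium-binding protein of neutrophils and monocytes, was higher after LPS by 0.32 ± 0.0963 (limma, unadjusted p = 0.00364, adjusted p = 0.498). ITGAM, the integrin chain CD11b of myeloid cells, was higher by 0.37 ± 0.144 (unadjusted p = 0.0202, adjusted p = 0.669). With NCR1 these were the 3 marker genes at an unadjusted p under 0.05 for maternal LPS, each higher after LPS. They were 1 of 14 T and natural killer markers tested, 1 of 9 macrophage markers and 1 of 4 neutrophil markers. None of the 2 B cell, 7 endothelial, 5 fibroblast, 4 cortex and 3 medulla markers tested reached that level. Among all probe sets 3.37% were higher and 3.59% lower at that level, and the marker count was not tested against these shares. The 3 genes were named after their values were seen.

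Within groups, CXCL11 varied with several interferon and immune measures, none of which passed adjustment over the 66 correlations. Its r was 0.749 with IL12B (permutation p = 0.0129, adjusted p = 0.187, rho = 0.77 with permutation p = 0.00496), and 0.710 without piglets 20 and 12. IL12B was dim, and with the group means left in its r with CXCL11 was 0.071. With STAT2 the r of CXCL11 within groups was 0.739 (permutation p = 0.0129, adjusted p = 0.187, rho = 0.63 with permutation p = 0.0306), and 0.487 without those piglets. With IRF7, a factor of the type I interferon response, r was 0.715 (permutation p = 0.017, adjusted p = 0.187, rho = 0.57 with permutation p = 0.0481) and 0.468 without them.

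CXCL11 also varied with the mean of the T and natural killer markers (r = 0.679, permutation p = 0.0459, adjusted p = 0.290, rho = 0.67 with permutation p = 0.033) and of the macrophage markers (r = 0.624, permutation p = 0.0167, adjusted p = 0.187, rho = 0.57 with permutation p = 0.0399). Without piglets 20 and 12 these were 0.660 and 0.486. CXCL9 showed less of this, with r = 0.251 for the T and natural killer markers (permutation p = 0.461). With the macrophage markers its r was 0.037 (permutation p = 0.896). For CXCL9 r was 0.631 with IRF7 (permutation p = 0.0206, adjusted p = 0.194, rho = 0.49 with permutation p = 0.0655) and 0.356 without piglets 20 and 17. With STAT2 it was 0.616 (permutation p = 0.0139, adjusted p = 0.187, rho = 0.61 with permutation p = 0.00941) and 0.584 without them. The differences between the members in these correlations were not tested. The interquartile range of the array had r of -0.273 with CXCL11 (permutation p = 0.51, rho = -0.128 with permutation p = 0.687). With CXCL9 its r was -0.303 (permutation p = 0.381, rho = -0.132 with permutation p = 0.662).

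**Figure D5:**
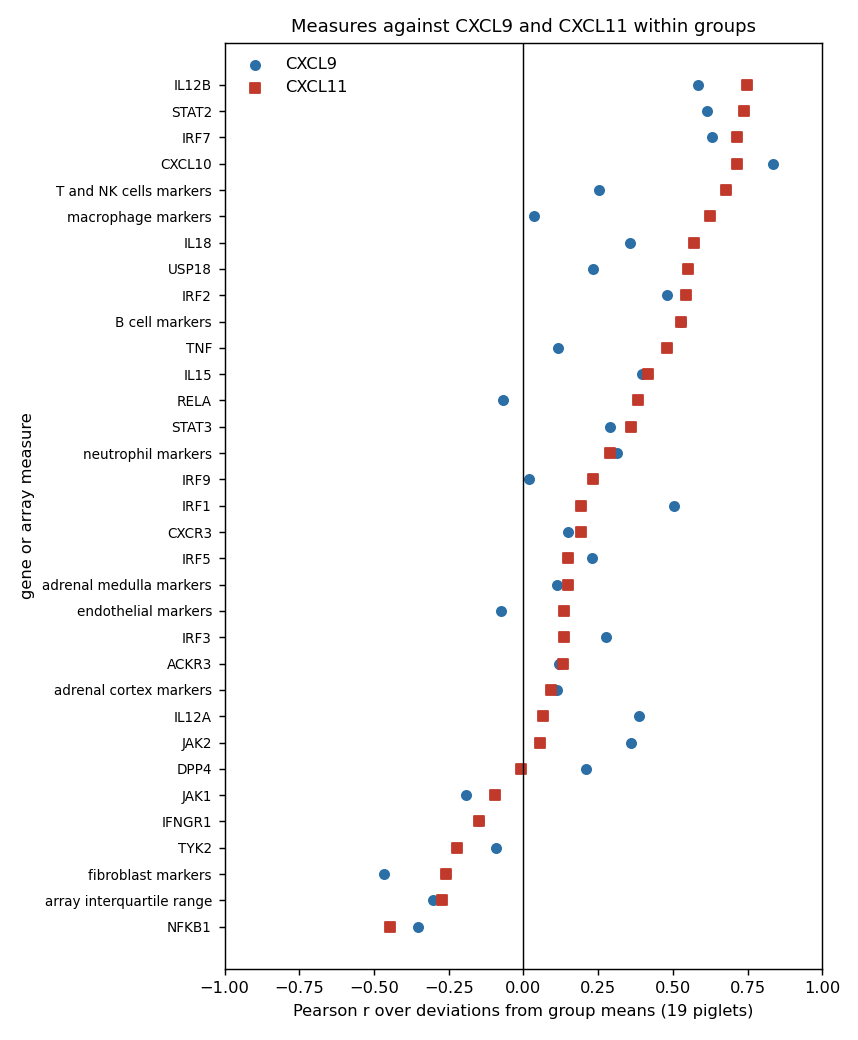
Pearson r (horizontal axis) of CXCL9 (circles) and CXCL11 (squares) with interferon pathway genes, CXCR3 axis genes, mean marker levels and the array's interquartile range, over deviations of 19 piglets from their group means. CXCL10 with CXCL9 (r = 0.836) is the only one of 66 that passed adjustment; CXCR3 lies near 0 for both.

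The genes whose deviations were most like those of each member were ranked over 9991 genes as a description. For CXCL9 they were JAM3 (r = 0.882), KIFC3 (0.876), SLA-DMA (0.865), CXCL10 (0.836), SHROOM1 (0.831), VPS37B (0.807), ETFA (0.799) and WARS (0.797). JAM3 encodes a junctional adhesion molecule, and SLA-DMA is the pig gene of an MHC class II peptide loader. For CXCL11 they were MAD2L2 (0.929), SMAGP (0.873), WARS (0.871), TFPT (0.861), PEF1 (0.836), LOC100736663 (0.831), TAPBP (0.828) and GVIN1 (0.824). TAPBP encodes tapasin, which helps load peptides on MHC class I, and GVIN1 is an interferon-inducible GTPase gene. WARS was the 1 gene in both lists. CXCL11 itself stood at place 65 for CXCL9, and CXCL9 at place 112 for CXCL11.

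With the group means left in, the 5 genes most like CXCL9 were CXCL10 (r = 0.838), CXCL11 (0.819), CD274 (0.798), VTI1B (0.786) and JAM3 (0.785). Those most like CXCL11 were MAD2L2 (0.934), GBP1 (0.894), WARS (0.886), CNP (0.869) and CMPK2 (0.867), which shared 0 genes with the first 5. MAD2L2, a protein of DNA repair, differed by -0.39 ± 0.109 after maternal LPS (limma, unadjusted p = 0.00238, adjusted p = 0.428), GVIN1 by -0.69 ± 0.284 (adjusted p = 0.687) and CMPK2 by -0.48 ± 0.131 (adjusted p = 0.413). JAM3 (-0.05 ± 0.109) and KIFC3 (0.08 ± 0.0923), the closest to CXCL9 within groups, had differences smaller than their SE.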

How the data were processed

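The authors' deposited table holds 1 log2 signal per probe set and piglet, used as deposited with no further scaling. Base 2 was inferred from the range of values, 0.263 to 13.5. Per the submitters' processing notes, Transcriptome Analysis Console 4.0 was used. The steps from probe signals to these values, summarization and normalization included, are not given in the sources used here. RNA of whole glands was labelled with biotin for 1-colour Affymetrix arrays, per the labels' protocols. Piglets count as replicates, each from a separate sow. The files used here give no slide or scan date. Of 27558 probe sets, 13157 have 1 symbol in the platform annotation, 523 several and 13878 none.

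Probe sets with a mean under 3.23 (6890, the lowest 25%) were left out, and 20668 were tested. A model with 1 mean per group was fitted to all 19 arrays in limma 3.58.1 (R 4.3.3), with moderated variances, an intensity trend, 13 residual degrees of freedom and 4.62 prior ones. P-values are two-sided and were adjusted by Benjamini-Hochberg over the 20668, with 0.05 as the threshold. The ± beside a difference is its SE. Of several probe sets of a symbol, the brightest was used. Control probe sets of the array were not identified and stay in the tests. The fit was checked on simulated data.

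Correlations used deviations from group means, permuted within groups 100000 times (Python 3.11.15, scipy 1.17.1), in 66 pairs of 2 genes and 33 measures. Of 85 list genes other than CXCL9 and CXCL11, 56 were tested, 5 lay under the filter and 24 have no probe set of their own symbol. Probe sets with several symbols were not matched to the lists. Named were both genes, the CXCR3 axis and main interferon genes, and the 8 genes (5 with group means left in) most correlated with each. Genes of the 4 chemokine and interferon lists needed an unadjusted p under 0.05 for maternal LPS over the 3 diets or between diets. CCL8, CCL2, CXCL8, IRF7, the flanking genes and the marker genes were named outside these rules. The genes and lists were chosen with earlier results of these data known. Gene order came from the RefSeq table of Sscrofa11.1. Alternatives were other filters, scalings, models, array weights and the leaving out of piglets.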

Additional observations from a re-analysis of the deposited data

Results flagged for a closer look

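In 24 groups of 4 piglets, each of the genes of the CXCR3 axis and the interferon input named throughout was examined for a single piglet far from the other 3, by Dixon's criterion of 0.829. Chance alone marks about 1 group in 20. CXCR3 in Fish Oil piglets of LPS sows stood apart in piglet 24, at 6.49. IFNG in the same piglet was 2.42, under the filter on dim probe sets. ACKR3 in the same group stood apart in piglet 20, at 5.78, and DPP4 in Fish Oil piglets of saline sows stood apart in piglet 9, at 6.88. Neither CXCL9 nor CXCL11 had such a piglet in either Fish Oil group.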

How the results depend on the processing

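The maternal LPS differences of CXCL9 and CXCL11 over the 3 diets kept their direction under all 8 alternatives, from -0.97 to -0.76 for CXCL9 and from -1.44 to -1.24 for CXCL11, and the diet differences also kept theirs. The Control LPS difference of CXCL9 reached -0.60 with array weights. Leaving out piglets 6 and 24 was chosen after seeing the data. The count of probe sets called for maternal LPS was 2. It was 0 with no filter, quantile normalization, the additive model, array spread as covariate or without piglets 6 and 24, and 9 with array weights, and the cause was not tested. The correlation of CXCL9 with CXCL11 lost its call without piglets 20 and 17 (0.503) and without piglets 6 and 24 (0.682).

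With each piglet left out in turn, the differences over the 3 diets ran from -1.002 to -0.66 for CXCL9 and from -1.50 to -1.07 for CXCL11. For CXCL9, LPS differences ran from -1.44 to -0.84 under Fish Oil, -1.58 to -0.78 under Microalgae and -0.65 to 0.33 under Control, turning sign without piglet 17 or 14. For CXCL11 they ran from -2.16 to -1.28, -2.30 to -1.03 and -0.77 to -0.07. Diet differences of CXCL9 ran from -0.16 to 0.33 (Fish Oil minus Control, turned without piglet 17 or 8), -0.45 to 0.064 (Microalgae minus Control, turned without 22 or 16) and 0.05 to 0.48 (Fish Oil minus Microalgae). Those of CXCL11 ran from 0.21 to 0.65, -0.16 to 0.48 (turned without 12 or 7) and -0.10 to 0.53 (turned without 22 or 23). Called probe sets ran from 0 to 12 for maternal LPS, highest without piglet 7, and stayed at 0 for the diets. The correlation ran from 0.557 to 0.762, and lost its call without piglet 20 or 22. Without piglet 7 or 23, Microalgae LPS holds 1 piglet, assumed to vary like the other groups. Promoter motifs were not examined. No paired analysis was possible because the groups share no piglet numbers.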
